A study of Mus musculus with 17 samples.

Results

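The 7 mouse genes that encode the subunits of the NMDA receptor, Grin1, Grin2a, Grin2b, Grin2c, Grin2d, Grin3a and Grin3b, were examined for accessible chromatin in neurons of the nucleus accumbens. They are 7 of 21755 protein-coding genes, taken by family name. Their regions were the peaks of all 17 libraries that overlapped the gene bodies, in mm10 coordinates of the GENCODE annotation, extended by 10 kb on each side. Peaks that overlapped between libraries were merged, and a merged region was kept where at least 2 libraries of 1 group had called a peak in it. The family held 443 merged regions, of which 246 were kept, among 147420 kept regions in all. Of these, 147 belonged to Grin2b, 56 to Grin2a, 14 to Grin3a, 9 to Grin2d, 8 to Grin3b and 6 each to Grin1 and Grin2c. The other 197 merged regions of the family did not pass this filter and entered no comparison below unless stated. Regions are named by their gene and by their order along it in the direction of transcription, so that Grin2b_r1 lies upstream of Grin2b and Grin2b_r147 downstream of it.

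ATAC-seq, in which a transposase cuts open DNA and inserts sequencing adapters, had been run on NeuN+ neuronal nuclei sorted from the bilateral nucleus accumbens of C57BL/6 mice aged 52 to 54 days. Mice in the 3 cocaine groups received 10 mg/kg cocaine i.p. and were killed 1 hour later, while control mice received no cocaine and served as the baseline. Diestrus females, proestrus females and males each formed a control and a cocaine group. Every group had 3 libraries except male cocaine, which had 2. Each library pooled tissue of 3 mice of a group, so that the spread between libraries is that between pools. Whether controls were injected is not given in the sources used here, and an effect of the injection itself cannot be told apart from that of cocaine. Diestrus cocaine 2 carried no stage label, so that only its title placed it in the group, and the proestrus cocaine libraries carry the numbers 1, 2 and 4.

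NMDA receptors are glutamate-gated cation channels that pass calcium and act as coincidence detectors of presynaptic release and postsynaptic depolarization. Every receptor contains GluN1, the obligatory glycine-binding subunit encoded by Grin1, together with glutamate-binding GluN2 subunits (Grin2a to Grin2d) or with GluN3 subunits (Grin3a and Grin3b), which bind glycine and lower the calcium permeability of the channel. GluN2B and GluN2A are the main GluN2 subunits of forebrain neurons, GluN2B being the more prominent early in development, while GluN2C is known chiefly from cerebellar granule cells and glia and GluN2D from the young brain and from interneurons. In the nucleus accumbens, NMDA receptors of the medium spiny neurons, the principal cells of this structure, are known to take part in the synaptic changes that follow cocaine, and GluN3A-containing receptors are among those described after cocaine in the reward system.

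The libraries held 75458 to 157005 peaks, and the background pileup, a measure of relative depth, was 6.26 to 9.55 reads. The percent of all kept regions called in a library was 64.6 to 70.7 in male controls, 42.0 and 36.6 in the male cocaine libraries, and 45.6 to 66.1 in females. Start sites of 5 of 5 neuronal markers were called in every library and those of 9 or 10 of 10 medium spiny neuron markers. Cortical excitatory neuron markers were called for 6 of 6 genes in all male controls (summed fold enrichment 36.9 to 41.9), for 1 of 6 in both male cocaine libraries (3.17 to 3.25) and for 1 to 3 in diestrus controls (2.08 to 19.9), 2 or 3 in diestrus cocaine (8.96 to 19.8), 4 in proestrus controls (17.4 to 20.2) and 2 to 4 in proestrus cocaine (9.09 to 14.3). Oligodendrocyte markers were called for 7 of 7 genes in proestrus cocaine 2 (summed fold enrichment 38.1) and for 1 to 3 in the other libraries (9.53 to 18.7). Of 5 astrocyte markers, 0 were called in the 9 control and 2 male cocaine libraries and in proestrus cocaine 4, and 1 or 2 in the other 5 female cocaine libraries (2.70 to 7.70), Gfap and Gja1 in none. Diestrus cocaine 1 shared more of its called regions with the diestrus controls (Jaccard index 0.685 to 0.740) than with the other diestrus cocaine libraries (0.587 to 0.663). Results that rest on these libraries are given with and without them. In pooled nuclei, a smaller share of cells of one type and lower accessibility per cell cannot be told apart.

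Sequences of the stretches on which the results turn are shown here, first the promoters of the family's highest and lowest start sites. RefSeq promoters (GRCm38.p6) were matched for 4 of the 7 genes, Grin1, Grin2c, Grin2d and Grin3b. The 250 bases before the annotated start of Grin1 and of Grin2c are printed in the direction of transcription. Capitals mark the CRE core (TGACG or its reverse complement CGTCA, a part of the full cAMP response element TGACGTCA) and the Sp1 box (GGGCGG or CCGCCC).
Grin1 promoter, chr2:25319188-25319437, minus strand: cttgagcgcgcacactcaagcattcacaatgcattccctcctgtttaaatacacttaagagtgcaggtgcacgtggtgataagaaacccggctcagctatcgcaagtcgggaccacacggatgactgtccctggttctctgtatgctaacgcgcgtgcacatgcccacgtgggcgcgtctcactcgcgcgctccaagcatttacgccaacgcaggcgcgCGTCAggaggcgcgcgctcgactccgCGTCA
Grin2c promoter, chr11:115267244-115267493, minus strand: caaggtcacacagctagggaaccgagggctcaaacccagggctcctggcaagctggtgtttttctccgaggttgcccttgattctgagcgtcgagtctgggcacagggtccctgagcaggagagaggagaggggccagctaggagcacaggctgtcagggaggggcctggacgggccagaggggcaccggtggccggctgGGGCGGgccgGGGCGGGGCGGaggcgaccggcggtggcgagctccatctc

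The printed bases of Grin1 held 2 CRE cores and no Sp1 box in 58.8% GC, and those of Grin2c held 3 Sp1 boxes, a pair of them overlapping, in 68.8% GC. Among 32851 promoters of 300 bases, 250 before and 50 after the start, 20.8% held a CRE core and 35.7% an Sp1 box. None of the 4 matched promoters held the full CRE (1.79% of all), an AP-1 site (TGACTCA or TGAGTCA, 5.20%), an Egr site (GCGTGGGCG, 0.612%) or the E-box CAGCTG (16.3%). All motifs were sought on both strands, and a match describes the letters only.

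The second set are 201-base windows centred on the summit of the highest peak of a region, for regions outside the start sites, from GRCm38. Grin3a_r9, Grin3a_r8 and Grin3a_r11 are intronic regions of Grin3a called almost only after cocaine.
Grin3a_r9, chr4:49785066-49785266, plus strand: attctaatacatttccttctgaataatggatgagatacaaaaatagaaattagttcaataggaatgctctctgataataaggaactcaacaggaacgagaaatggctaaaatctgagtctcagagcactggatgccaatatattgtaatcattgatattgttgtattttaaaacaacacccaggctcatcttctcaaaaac
Grin3a_r8, chr4:49785710-49785910, plus strand: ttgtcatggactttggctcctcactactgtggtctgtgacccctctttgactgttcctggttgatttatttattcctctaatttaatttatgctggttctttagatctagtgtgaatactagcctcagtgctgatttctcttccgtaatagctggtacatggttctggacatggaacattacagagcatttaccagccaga
Grin3a_r11, chr4:49748611-49748811, plus strand: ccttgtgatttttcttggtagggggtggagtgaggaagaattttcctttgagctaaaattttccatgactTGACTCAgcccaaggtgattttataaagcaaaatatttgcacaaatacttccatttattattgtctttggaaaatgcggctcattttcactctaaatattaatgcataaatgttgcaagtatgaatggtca
The next 4 regions lie in introns of Grin2a, and their fold enrichment fell after cocaine in diestrus.
Grin2a_r7, chr16:9953531-9953731, plus strand: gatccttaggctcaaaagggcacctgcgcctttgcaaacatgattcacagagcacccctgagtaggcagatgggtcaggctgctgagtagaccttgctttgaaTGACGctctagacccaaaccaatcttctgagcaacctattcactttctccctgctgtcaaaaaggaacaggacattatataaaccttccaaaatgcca
Grin2a_r14, chr16:9903128-9903328, plus strand: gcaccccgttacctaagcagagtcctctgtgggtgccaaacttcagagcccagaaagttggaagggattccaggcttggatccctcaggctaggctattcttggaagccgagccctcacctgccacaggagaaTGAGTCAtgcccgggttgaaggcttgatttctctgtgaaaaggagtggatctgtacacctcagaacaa
Grin2a_r50, chr16:9616882-9617082, plus strand: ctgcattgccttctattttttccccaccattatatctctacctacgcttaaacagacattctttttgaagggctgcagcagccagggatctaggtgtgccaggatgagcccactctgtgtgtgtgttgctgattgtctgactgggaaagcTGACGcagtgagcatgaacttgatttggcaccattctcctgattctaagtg
Grin2a_r55, chr16:9589117-9589317, plus strand: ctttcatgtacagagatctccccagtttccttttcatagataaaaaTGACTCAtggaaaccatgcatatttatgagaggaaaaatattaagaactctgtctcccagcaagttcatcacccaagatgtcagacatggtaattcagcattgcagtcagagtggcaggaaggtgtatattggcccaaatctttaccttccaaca
The last 3 are the Grin2b region with the largest rise after cocaine in proestrus and the pair of Grin2a regions with the largest differences between the sexes in controls.
Grin2b_r14, chr6:136125972-136126172, plus strand: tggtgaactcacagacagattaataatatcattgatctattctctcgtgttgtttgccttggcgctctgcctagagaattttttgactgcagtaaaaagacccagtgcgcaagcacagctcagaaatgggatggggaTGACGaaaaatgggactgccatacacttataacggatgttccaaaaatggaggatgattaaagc
Grin2a_r20, chr16:9862103-9862303, plus strand: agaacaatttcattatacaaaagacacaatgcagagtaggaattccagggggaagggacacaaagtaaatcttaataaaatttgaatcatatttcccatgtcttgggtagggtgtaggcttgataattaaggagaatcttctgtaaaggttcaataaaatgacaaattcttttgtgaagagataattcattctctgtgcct
Grin2a_r31, chr16:9801464-9801664, plus strand: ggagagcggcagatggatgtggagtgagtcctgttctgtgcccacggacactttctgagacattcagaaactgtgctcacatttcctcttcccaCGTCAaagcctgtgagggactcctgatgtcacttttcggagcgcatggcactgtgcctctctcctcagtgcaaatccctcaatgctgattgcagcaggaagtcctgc

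In these windows capitals mark an AP-1 site, bound by dimers of Fos and Jun proteins, in Grin3a_r11, Grin2a_r14 and Grin2a_r55, and a CRE core in Grin2a_r7, Grin2a_r50, Grin2b_r14 and Grin2a_r31. Grin3a_r9, Grin3a_r8 and Grin2a_r20 held none of the motifs sought. Over all windows of the family, 19 of 246 (7.72%) held an AP-1 site against 10.1% of all kept regions, and 22 (8.94%) a CRE core against 9.59%. An E-box stood in 32 (13.01%) against 12.1% and an Sp1 box in 12 (4.88%) against 8.996%. The full CRE and the Egr site were in 0 of the 246 windows, and in 0.498% and 0.159% of all.

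Most accessible regions of the family lay inside the long genes. Grin2a, Grin2b and Grin3a held 217 regions (88.2%), and 204 of the 246 lay in introns, 12 over exons, 10 at a start site of their own gene, 8 at the start site of a neighbour, and 6 each in the upstream and downstream flanks. Grin2b, 460 kb long on chromosome 6 (135713233 to 136173511, minus strand), held 3.06 kept regions per 10 kb of extended gene, whereas Grin3a, 184 kb long on chromosome 4 (49661611 to 49845744, minus strand), held 0.686. Grin2a, 428 kb long on chromosome 16 (9567898 to 9995560, minus strand), lay between them with 1.25 per 10 kb, as did Grin1 (1.25), Grin2d (1.35) and Grin2c (1.58). Grin3b, 6.48 kb long on chromosome 10 (79970715 to 79977190, plus strand), reached 3.02 per 10 kb, but 4 of its 8 regions lay at the start sites of Wdr18, Tmem259 or Cnn2 and not at its own. Of the 246 regions, 52 (21.1%) were called in all 17 libraries, against 25.0% of all kept regions.

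**Figure D1:**
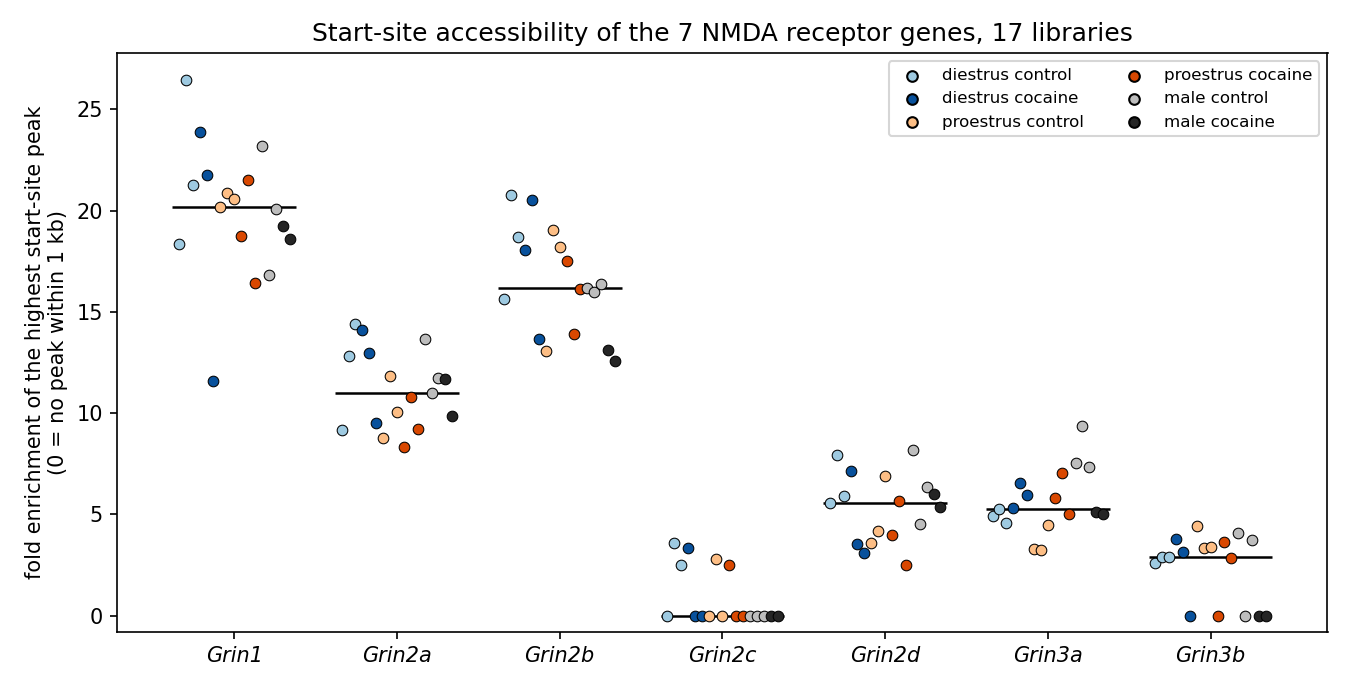
Fold enrichment (vertical axis, peak summit over the background of its own library) of the highest peak at the start sites of each of the 7 genes in each of 17 libraries, points coloured by group, lines for medians, 0 for no call. Grin1 and Grin2b stood above Grin2a in every library, and Grin2c was at 0 in 12 of the 17.

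Start sites fell into an order that held within nearly all libraries. The start of Grin1 (GluN1), on chromosome 2 (25291181 to 25319187, minus strand), had a median fold enrichment of 20.2 over the 17 libraries, with a range of 11.6 to 26.5, and it was called in each of them. The start of Grin2b (GluN2B) had a median of 16.2 (12.6 to 20.8) and that of Grin2a (GluN2A) 11.02 (8.31 to 14.4), also in 17 of 17. Grin1 stood above Grin2b in 16 of 17 libraries although their ranges overlapped, and Grin2b above Grin2a in 17 of 17. Both the Grin2d (GluN2D) start, with a median of 5.55, and the Grin3a (GluN3A) start, with 5.25 (3.25 to 9.36), were called in every library. They did not separate from each other, since Grin2d was the higher in 10 of 17. Weakest were Grin3b (GluN3B), called at a start site in 12 libraries with a median of 2.91, and Grin2c (GluN2C), called in 5, none of them male. Relative to the start sites of all protein-coding genes called in the same library, the median percentile was 74.4 for Grin1, 64.8 for Grin2b and 42.7 for Grin2a, but 16.2 for Grin2d and 14.8 for Grin3a.

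Annotated start sites of one gene were not all open. The 5′-most start of Grin2d, on chromosome 7 (gene at 45831883 to 45878378, minus strand), lay under a peak in 0 of 17 libraries, and the start 7949 bp inside the gene in 11. The peak at Grin2c, on chromosome 11 (115249169 to 115267243, minus strand), reached over the gene's 5′ end in 3 libraries and over its second annotated start in none. For Grin1 and Grin2b, peaks covered all 3 annotated starts in 17 of 17 libraries.

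The Grin3a start site differed in level between groups in the deposited values. It measured 3.66 ± 0.69 fold (SD, n = 3) in proestrus control, 5.96 ± 1.02 (n = 3) in proestrus cocaine, 4.91 ± 0.34 (n = 3) in diestrus control, 5.95 ± 0.60 (n = 3) in diestrus cocaine, 8.08 ± 1.12 (n = 3) in male control and 5.07 ± 0.10 (n = 2) in male cocaine. The Grin1 start, by contrast, lay between 18.9 ± 2.53 in proestrus cocaine and 22.0 ± 4.12 in diestrus control (SD, n = 3 each), differences within the spread of the libraries. Grin2b ran from 12.8 ± 0.40 (n = 2) in male cocaine to 18.4 ± 2.59 (n = 3) in diestrus control. After the quantile normalization used below, the Grin3a start had log2 means of 2.77 in male control and 2.60 in male cocaine. In proestrus these means were 1.98 in control and 2.60 after cocaine. For the Grin2b start they were 3.82 in male control and 3.83 in male cocaine.

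Away from start sites, the highest region of Grin2b was as high as its promoter. This region, Grin2b_r97 (chromosome 6, 135896629 to 135913634), lies in intron 5, 268 kb from the 5′ end, and had a median fold enrichment of 17.2 with a range of 13.2 to 22.1 in 17 of 17 libraries. The highest such region of Grin2a, Grin2a_r48 in intron 11 (chromosome 16, 9625077 to 9626561), had a median of 10.3 (6.20 to 14.1). Grin1_r4, over exons of Grin1 (chromosome 2, 25302012 to 25310363), reached 5.11, and Grin3a_r14, over an exon 181 kb from the 5′ end of Grin3a (chromosome 4, 49664247 to 49665376), 4.94. All 4 were called in every library. The corresponding regions of the other genes were called less often, Grin2c_r5 in its downstream flank in 7 libraries (median 4.52), Grin2d_r5 in intron 3 in 4 (3.44) and Grin3b_r2 in its upstream flank in 6 (2.92).

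**Figure D2:**
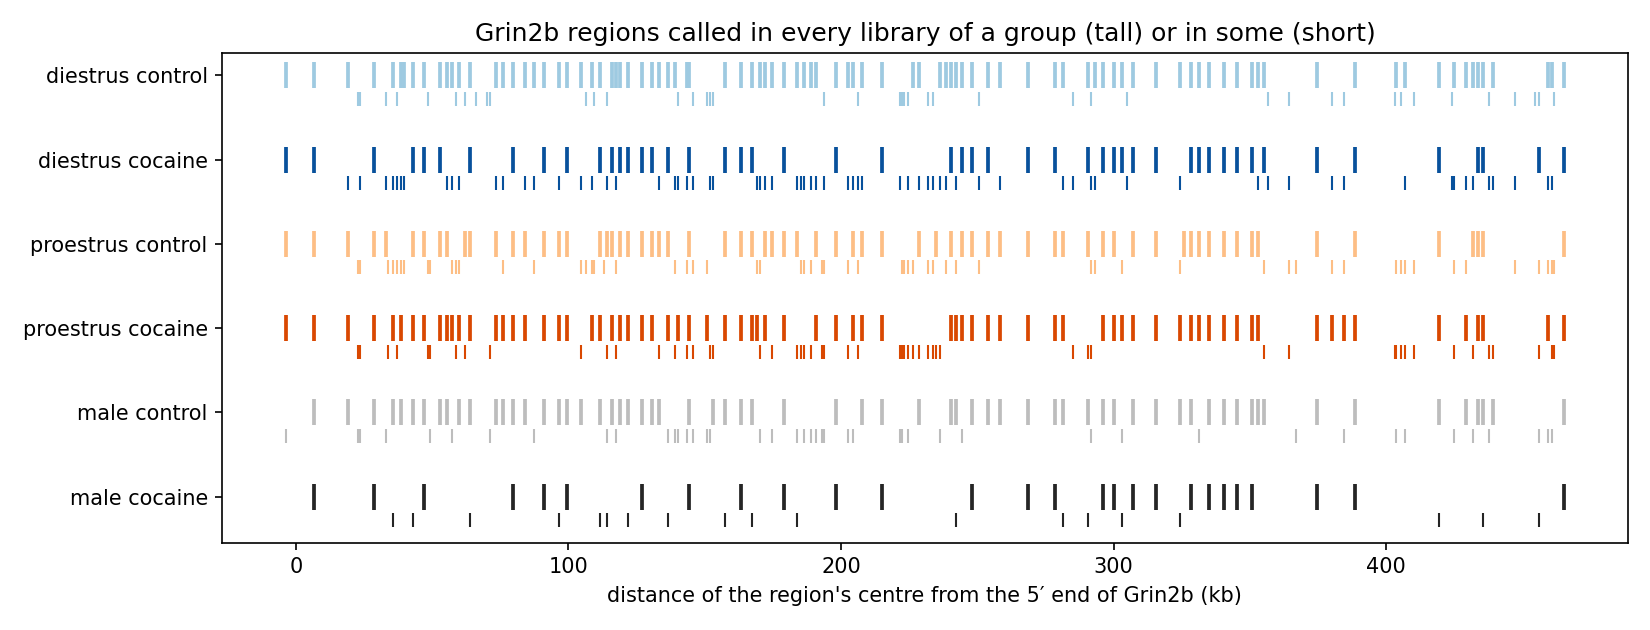
Kept regions of Grin2b by the distance of their centre from the gene's 5′ end (horizontal axis, kb), 1 row per group, with a tall tick for a region called in every library of the group and a short tick for one called in some. Of the 147 regions, 95 had a tall tick in diestrus control and 27 in male cocaine.

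The first comparison asked which regions were gained or lost 1 hour after cocaine within each sex and stage. A region was counted as gained where every cocaine library and no control library had called it, and as lost in the reverse case. With 3 against 3 libraries an exact test cannot go below a p of 0.1, so such counts carry no p and are read beside the same share over all 147420 kept regions. Leaving out a library makes complete separation easier, so that counts without one library can only stay or grow. A region called in every library of a group passes the filter on regions through that group, and these counts were the same over all merged regions.

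Cocaine in diestrus added 1 region of the family (0.407% of 246), Grin3a_r9, against 1.16% of all kept regions, and removed 5 (2.03% of 246, against 1.26% of all). The 5 lost were Grin2a_r12, Grin2a_r33 and Grin2a_r39 in introns 3 and 4 of Grin2a and Grin2b_r83 and Grin2b_r128 in introns 4 and 11 of Grin2b. Without diestrus cocaine 1, whose calls lay near those of the controls, the lost regions numbered 38, and all lost regions 10670. Without diestrus control 1, 2 or 3 they numbered 14, 11 and 8, and without diestrus cocaine 3 the gained regions numbered 3.

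In proestrus, 2 regions (0.813%) were gained, Grin3a_r9 again and Grin2b_r51 in intron 4 of Grin2b, against 2.45% of all, and 6 were lost (2.44%, against 1.64% of all). Those lost were Grin2a_r4, Grin2b_r7, Grin2b_r111, Grin2d_r7 over exons 11 and 12 of Grin2d, and Grin3b_r2 and Grin3b_r3 upstream of Grin3b, the last at a start site of Wdr18. Without proestrus cocaine 2, the library with oligodendrocyte markers, 6 regions were gained. The gained count was also 6 without proestrus cocaine 1 or 4 and 5 without proestrus control 3, and the lost count was 10 without proestrus control 2.

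In males 3 regions (1.22%) were gained, all in introns of Grin3a (Grin3a_r5, Grin3a_r8 and Grin3a_r11), against 1.66% of all. All 3 had passed the filter on regions only through male cocaine. In each sex and stage the share gained in the family was below that of all kept regions. The family lost 32 regions (13.01%), against 16.8% of all kept regions, a share no larger than the background of a group in which far fewer peaks were called. Of these 32, 8 lay in Grin2a and 24 in Grin2b, none in the other 5 genes. In Grin2a they were r9, r13, r19, r34, r40, r41, r49 and r53, all intronic. In Grin2b they ran from r3, 19.0 kb from the 5′ end, to r140 over exon 15, with r11, r17, r18, r21, r27, r28, r30, r35, r42, r44, r47, r48, r57, r77, r84, r90, r95, r96, r118, r119, r135 and r137 between them. Without male control 2 the number lost was 55, and 35058 over all regions. The male controls were also the libraries with calls at all 6 cortical excitatory markers, and the part of those cells in the loss was not tested.

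Of the 5 regions gained in 1 or more of these comparisons, 4 lay in Grin3a. Grin3a_r9 (chromosome 4, 49784940 to 49785386) is a 447 bp stretch of intron 2 that lies 60.6 kb from the 5′ end of the gene. It was called in 3 of 3 diestrus cocaine libraries with fold enrichments of 2.73, 2.89 and 2.53, and in 3 of 3 proestrus cocaine libraries with 2.80, 2.25 and 2.72. It was called in 0 of 6 female control libraries. Astrocyte markers, also called in 5 of the 6 female cocaine libraries and in none of the controls, moved with it, and their part in it was not tested. In males the direction differed, with a call of 3.31 in male control 2 and none in either male cocaine library. Grin3a_r8, 59.8 kb from the 5′ end in the same intron, and Grin3a_r11, 97.1 kb from it in intron 3, each had a peak in 4 of the 8 cocaine libraries and in 0 of the 9 controls. Grin3a_r5, in intron 1, was called in both male cocaine libraries (2.51 and 2.91), in proestrus cocaine 4 (2.51) and in diestrus control 1 (2.71).

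All of these Grin3a calls were weak. Of the called kept regions of the same library, 0.312% to 23.7% had a lower fold enrichment than Grin3a_r9, and library medians were 3.56 to 4.27. When only peaks with a −log10 q of at least 5 were used, none of the 3 regions gained in males and not the 1 gained in diestrus remained as such. A missing call says that no peak passed at this depth, not that the region was closed.

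**Figure D3:**
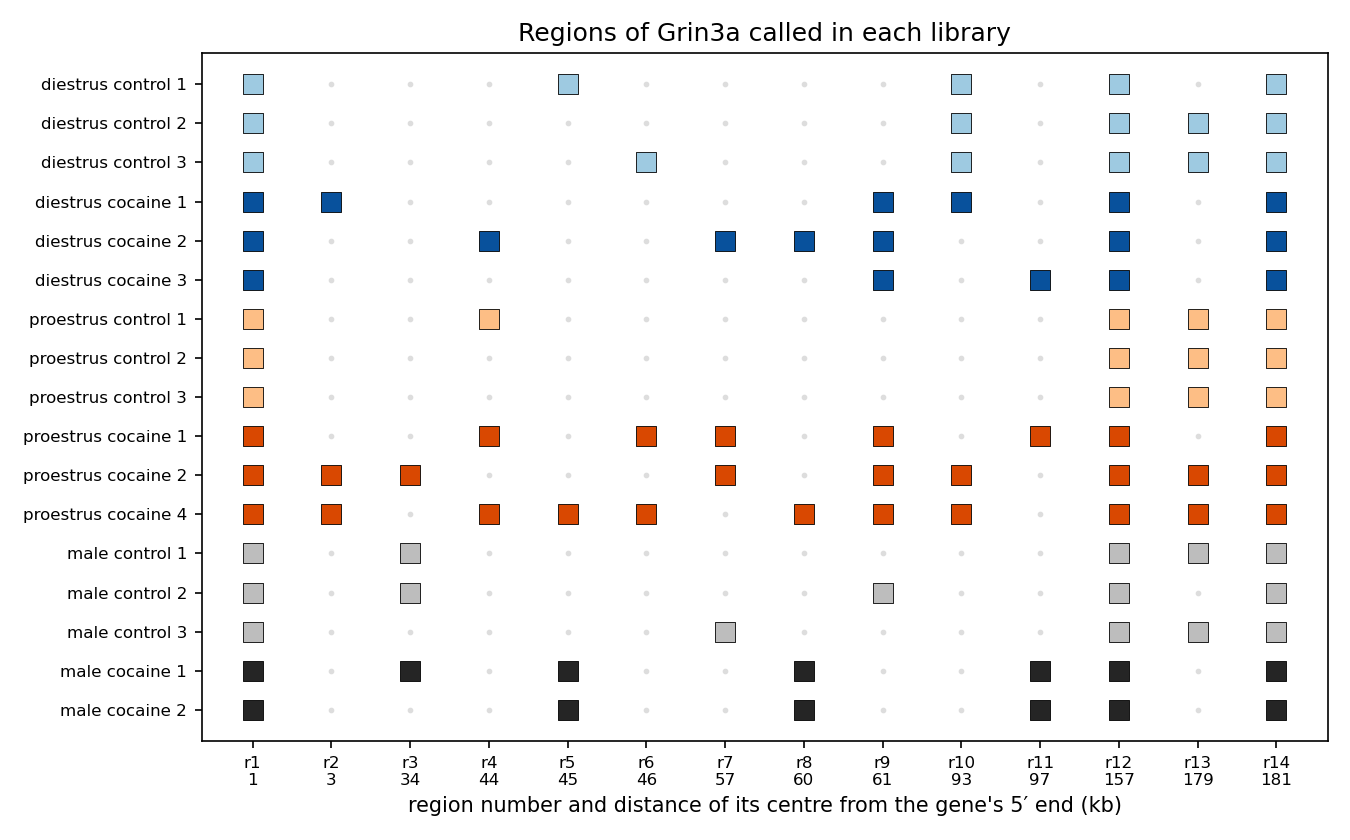
Calls of the 14 kept Grin3a regions (columns, in the direction of transcription, with the distance from the 5′ end in kb) in each of the 17 libraries (rows), a square coloured by group marking a call and a grey dot none. Grin3a_r9 was called in all 6 female cocaine libraries, in none of the 6 female controls and in 1 of the 5 male libraries.

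Tested region by region over all 17 libraries (two-sided Fisher's exact test, 8 cocaine against 9 control, Benjamini-Hochberg over 64304 regions called in 4 to 13 libraries), 0 of 133 regions of the family and 0 of all regions passed an adjusted p of 0.05. At an unadjusted p of 0.05, 3 of the 133 (2.26%) were called more often after cocaine, against 3.81% of all, and 12 (9.02%) less often, against 9.23% of all. The 3 were Grin3a_r9 (6 of 8 against 1 of 9, exact p = 0.0152, adjusted p = 0.278), Grin3a_r8 and Grin3a_r11 (each exact p = 0.0294, adjusted p = 0.321). All 3 had been kept only through cocaine groups, Grin3a_r8 and Grin3a_r11 through male cocaine alone, so that the filter favoured this direction for them. The smallest p of the family was that of Grin2b_r48 in intron 4 of Grin2b, with a peak in 2 of 8 libraries after cocaine and in 9 of 9 controls (exact p = 0.00226, adjusted p = 0.216). Of the 12 called less often, 10 lay in Grin2b and the remaining pair, Grin2a_r4 and Grin2a_r40, in Grin2a, with 0 of 8 against 6 of 9 libraries each. Among them, Grin2b_r48, Grin2b_r7, Grin2b_r31, Grin2b_r128, Grin2a_r4 and Grin2a_r40 had been kept only through control groups. For these the filter favoured fewer calls after cocaine. Without any single control library or either male cocaine library, 1 region was called more often. The count called less often was 3 to 7 without any single library other than diestrus cocaine 1, the proestrus cocaine libraries or male control 2, and ran up to 15.

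The percent of each gene's regions that a library called was then compared over the 8825 protein-coding genes with at least 5 kept regions, after subtracting the percent of all kept regions called in that library. Differences below are in percentage points of this centred value, tested with a two-sided exact permutation test of labels within strata and Benjamini-Hochberg adjustment over the 8825 genes. Across sexes and stages, cocaine was followed by an adjusted p under 0.05 in 1.54% of all genes, 82 higher and 54 lower.

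Grin3a was 1 of the 82 genes with a higher percent called after cocaine, in a set of regions that the filter tilted in this direction. Of its 14 regions 8 (57.1%) had been kept only through cocaine groups and 1 (7.14%) only through control groups, against 9.11% and 34.1% of all kept regions. With all 29 merged regions of the gene, which no such filter had chosen, the centred difference was 18.2 points and did not pass (exact permutation p = 0.00025, adjusted p = 0.0503). Of the 14 kept regions, diestrus control libraries called 5, 5 and 6 and diestrus cocaine libraries 6, 7 and 5. Proestrus controls called 5, 4 and 4 and proestrus cocaine libraries 8, 9 and 11. Male controls called 5 each and the male cocaine libraries 7 and 6. The groups did not overlap in proestrus and in males and overlapped in diestrus. In males this rests on Grin3a_r5, Grin3a_r8 and Grin3a_r11, kept only through male cocaine and called in no male control. Of the other Grin3a regions, the male cocaine libraries called fewer than the male controls. The centred difference over the kept regions was 27.3 points (exact permutation p = 0.00075, adjusted p = 0.0487), made up of 10.4 points in diestrus, 32.0 in proestrus and 39.7 in males. Without the centring the differences were 4.76, 35.7 and 10.7 points, the centring on fewer calls in the male cocaine libraries making up the rest of the male value.

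This Grin3a call lay at the edge of the threshold. It was lost without any 1 of 15 of the 17 libraries, with adjusted p of 0.0583 to 0.0901 and differences of 25.5 to 29.4 points, and remained only without diestrus cocaine 1 or male control 2. Leaving out a library makes the smallest possible p larger, so that those losses alone do not show dependence on a single library. The call has further limits. It was also lost with peaks of −log10 q of at least 5 (11.5 points, adjusted p = 0.221), with equal numbers of peaks per library (9.66 points, adjusted p = 0.109) and in the 12 female libraries alone (21.2 points, adjusted p = 0.0655). The 11 Grin3a regions that were not called in every library had been called in 3 to 9 of them at fold enrichments of 2.25 to 4.08.

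Grin2a and Grin2b had lower values after cocaine that did not pass the adjusted threshold. Of the 56 Grin2a regions, 30 had been kept only through control groups and 1 only through cocaine groups, a tilt in the other direction. Diestrus control libraries called 36, 37 and 43, diestrus cocaine libraries 35, 25 and 14, male controls 44, 29 and 38, and the male cocaine libraries 17 and 14. In diestrus and in males, then, the cocaine libraries lay below all controls. The proestrus libraries overlapped, with 21, 24 and 28 in controls and 26, 22 and 20 after cocaine. Over all kept regions, male cocaine libraries lay below all male controls too (42.0% and 36.6% against 64.6% to 70.7%). In diestrus the groups overlapped (45.6% to 66.1% against 56.0% to 64.2%). After centring, Grin2a overlapped in males (cocaine -11.7 and -11.6 points, controls -12.8 to 9.01). In diestrus it did not (-20.6 to -3.62 against 4.86 to 12.6). The centred difference for Grin2a was -11.8 points (exact permutation p = 0.005, adjusted p = 0.0826) and without centring -22.1 points (adjusted p = 0.0445). With all merged regions it was -8.54 points (adjusted p = 0.0933). For Grin2b it was -8.58 points (exact permutation p = 0.0195, adjusted p = 0.139), against a median of -4.16 over all genes. Without male control 2, 1 gene of the family passed with a lower value. Grin1 (2.87 points), Grin2c (1.02), Grin2d (-11.9) and Grin3b (-7.77) had adjusted p of 0.344 to 0.945.

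**Figure D4:**
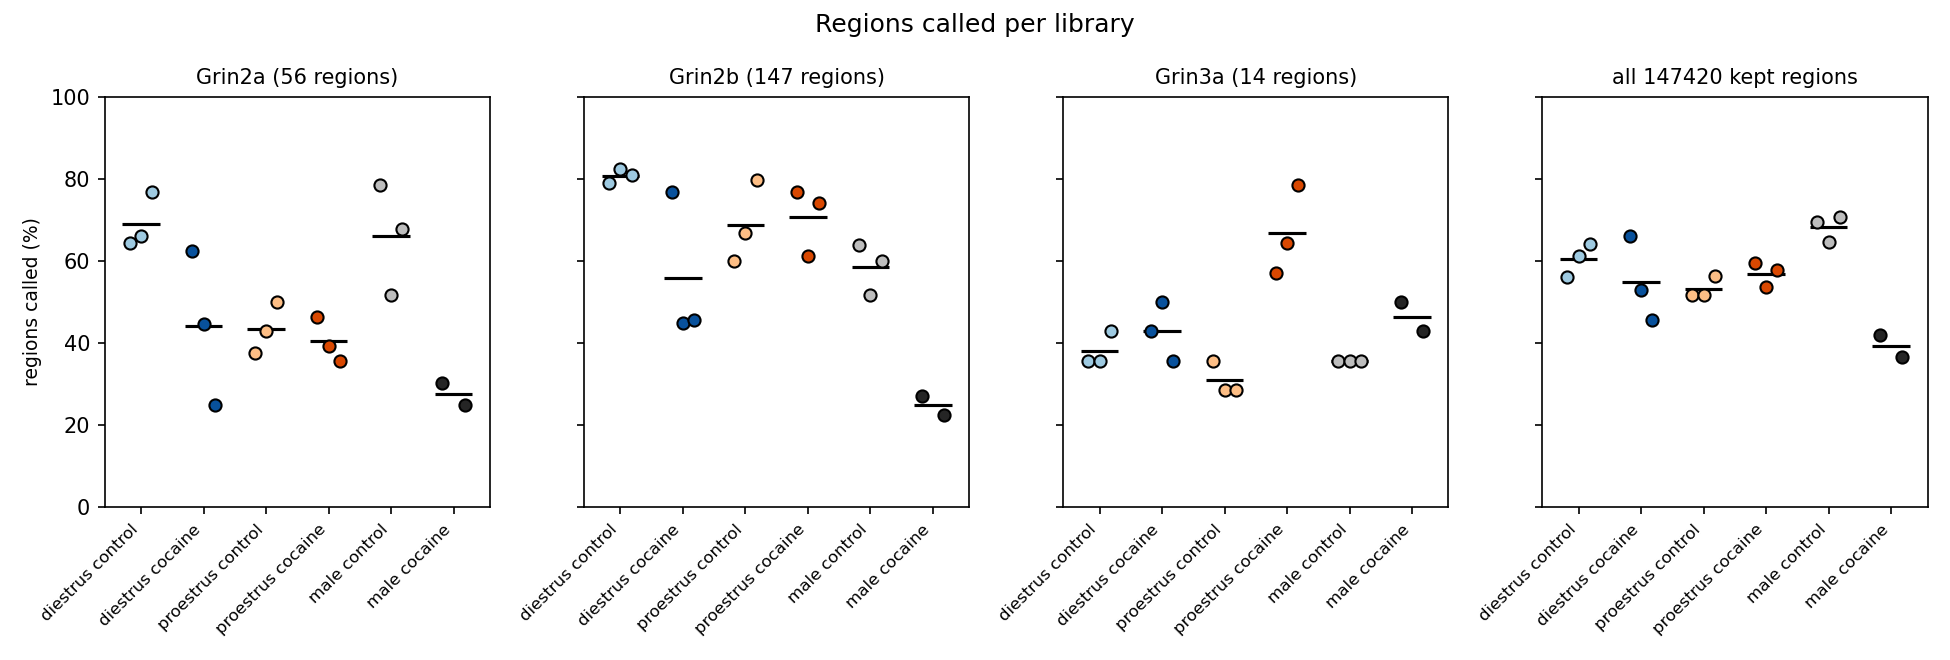
Percent of kept regions called (vertical axis) for Grin2a, Grin2b, Grin3a and all kept regions, with points for libraries by group and lines for group means. For Grin3a the proestrus cocaine libraries lie above the proestrus controls, while for Grin2b both male cocaine libraries lie below all others, as they do for all kept regions.

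Fold enrichment itself could be compared in the 36847 regions called in all 17 libraries, 52 of them in the family (27 in Grin2b, 11 in Grin2a, 4 in Grin1, 3 each in Grin2d and Grin3a, 2 each in Grin2c and Grin3b). Values were quantile-normalized on the log2 scale and fitted with limma, and all differences below are log2 differences with standard errors and limma adjusted p-values over the 36847 regions. Fold enrichments given per library are the deposited values before normalization.

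After cocaine in diestrus, 4 of the 52 regions had lower fold enrichment and all 4 lay in introns of Grin2a. The background was 4.59% lower and 4.65% higher, with 0 of the family higher (1 at an unadjusted p of 0.05). Grin2a_r50 in intron 11 measured 6.58, 5.92 and 4.88 in controls and 6.05, 2.64 and 2.53 after cocaine, a difference of -0.77 ± 0.19 (SE, adjusted p = 0.0189). Grin2a_r7 in intron 3, 41.8 kb from the 5′ end, measured 8.39, 9.16 and 8.61 in controls and 8.55, 5.66 and 4.02 after cocaine, a difference of -0.61 ± 0.14 (adjusted p = 0.0160). In these deposited values diestrus cocaine 1 stood within the range of the controls in both regions and the other 2 cocaine libraries below every control. Grin2a_r55 in intron 12 measured 9.42, 10.2 and 10.8 against 9.26, 7.92 and 4.25, a difference of -0.62 ± 0.15 (adjusted p = 0.0199). Grin2a_r14 in intron 3 measured 12.8, 12.1 and 11.8 against 14.01, 7.92 and 5.05, a difference of -0.62 ± 0.20 (adjusted p = 0.0498). Diestrus cocaine 1 was again the highest of the cocaine libraries. After normalization it lay below all controls at Grin2a_r7 and Grin2a_r55 and within their range at Grin2a_r50 and Grin2a_r14. Over the 11 Grin2a regions the median difference was -0.39, with 9 negative, against a median near 0 (0.0041) over all regions.

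These diestrus calls depended on single libraries. Without diestrus cocaine 2 or 3, 0 of the 52 regions were lower, and 5 and 9 of all 36847. When diestrus cocaine 1 was left out, 13 of the 52 were lower, 1 was higher, and 5039 of all were lower. Without diestrus control 1, 2 or 3, the count was 2, 1 and 1. Grin2a_r14 stayed under the threshold only without diestrus cocaine 1, proestrus cocaine 2 or male control 2. With diestrus cocaine 1 and proestrus cocaine 2 both left out, 13 regions were lower and 2 higher.

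After cocaine in proestrus, 2 of the 52 regions rose and 2 fell, against 2.28% and 1.97% of all. Grin2b_r14, in intron 3 of Grin2b and 47.1 kb from the 5′ end (chromosome 6, 136125582 to 136127279), measured 2.75, 2.90 and 2.56 in controls and 5.91, 4.38 and 5.45 after cocaine. All cocaine libraries stood above all controls. The difference was 0.87 ± 0.15 (adjusted p = 0.00586), and the region passed in each of the 17 leave-one-out fits. In diestrus the difference at Grin2b_r14 was 0.27 ± 0.15 (adjusted p = 0.221) and in males 0.17 ± 0.16 (adjusted p = 0.548). The start site of Grin3a, Grin3a_r1, measured 3.27, 3.25 and 4.45 in controls and 5.81, 7.06 and 5.03 after cocaine, again without overlap, a difference of 0.62 ± 0.18 (adjusted p = 0.0476).

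Grin1_r3 over exons 3 and 4 of Grin1 measured 3.48, 5.80 and 4.64 in controls and 3.20, 2.78 and 3.14 after cocaine, a difference of -0.71 ± 0.16 (adjusted p = 0.0199). Grin2b_r112 in intron 5 measured 5.17, 5.57 and 4.17 in controls and 3.30, 3.42 and 3.87 after cocaine, a difference of -0.61 ± 0.15 (adjusted p = 0.0264). In both, all cocaine libraries stood below all controls. Grin1_r3 lost its call without proestrus control 2 or 3 or proestrus cocaine 1 (adjusted p 0.0583 to 0.106), and Grin2b_r112 without proestrus control 1 or 2 or proestrus cocaine 1 (0.104 to 0.110). Grin3a_r1 lost its call without 13 of the 17 libraries (0.0510 to 0.168), keeping it only without diestrus cocaine 1 or 3, proestrus control 3 or male control 2. Without proestrus cocaine 2 the rise at Grin3a_r1 was among the calls lost, so that 1 region rose. The summed cortical excitatory marker level, 17.4 to 20.2 in proestrus controls and 9.09 to 14.3 in proestrus cocaine, moved with this contrast without overlap, and its part in it was not tested.

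After cocaine in males, 1 region rose and 1 fell, against 3.26% and 4.73% of all. Grin2a_r20 in intron 3 of Grin2a measured 7.27, 5.65 and 7.68 in controls and 7.87 and 7.90 after cocaine, a difference of 0.67 ± 0.17 after normalization (adjusted p = 0.0196). Grin2b_r123 in intron 6 of Grin2b measured 8.03, 6.89 and 6.70 in controls and 4.26 and 3.02 after cocaine, a difference of -0.56 ± 0.16 (adjusted p = 0.0291). The cocaine libraries lay outside the range of the controls in both. Grin2a_r20 lost its call without male control 2, male cocaine 1 or male cocaine 2 (adjusted p 0.0913 to 0.151), and Grin2b_r123 without any male control or male cocaine 2 (0.0578 to 0.435). Without diestrus cocaine 1 or 3 or any single proestrus cocaine library 2 regions of the family rose, and without proestrus cocaine 2 also 2 fell. Centring on the median in place of quantile normalization changed the split of all calls in males from 40.8% to 55.8% higher, and 2 regions of the family then rose. The values at cortical excitatory markers given above moved with this contrast, and their part in it was not tested.

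**Figure D5:**
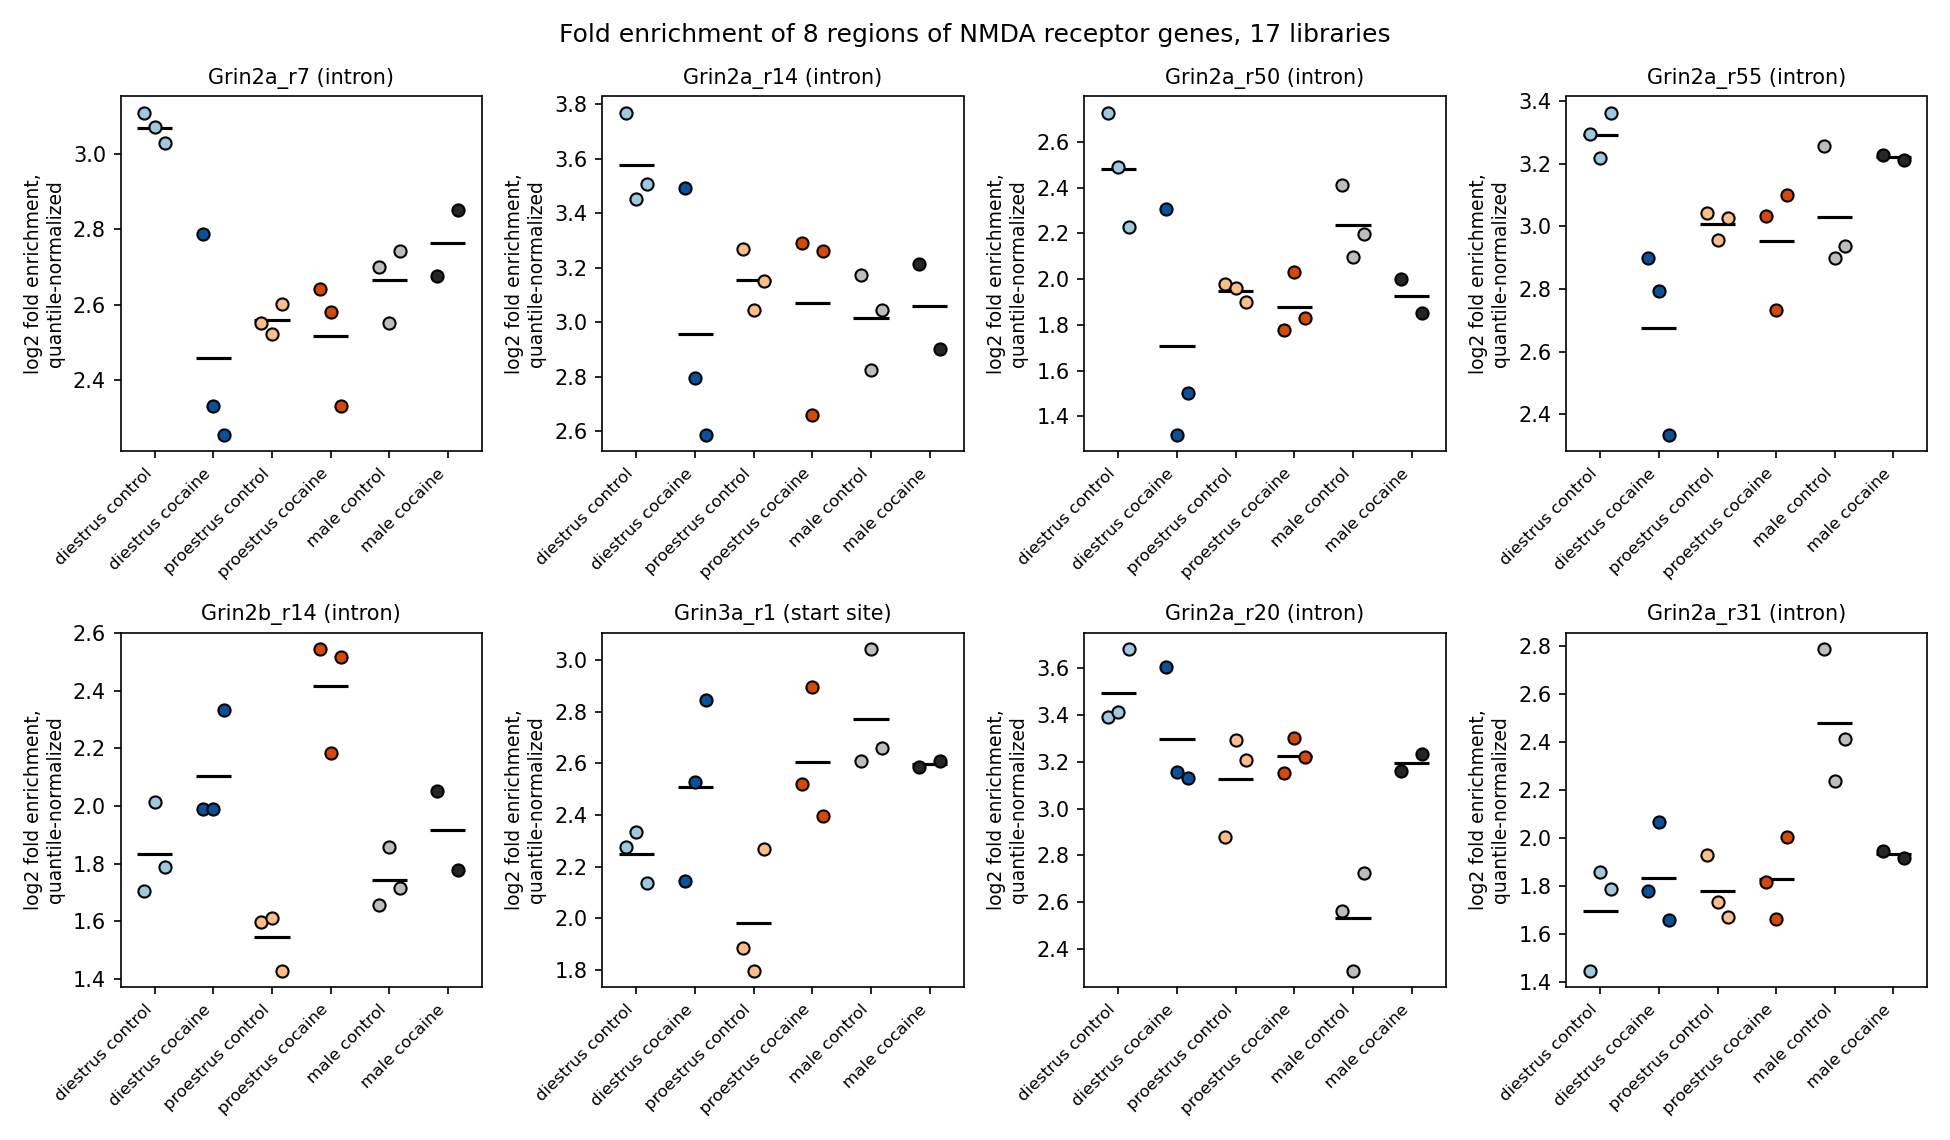
Quantile-normalized log2 fold enrichment (vertical axis, own range in each panel, not starting at 0) of 8 regions in each of 17 libraries, with points for libraries by group and lines for group means. Grin2b_r14 was higher in all 3 proestrus cocaine libraries than in all proestrus controls, and Grin2a_r31 was higher in the 3 male controls than in any other library.

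The second question was whether the estrous stage mattered in control females. Of the 246 regions, 12 (4.88%) were called in all diestrus and no proestrus controls, against 3.96% of all, and 2 (0.813%) in the reverse case, against 0.792% of all. Grin2a held 8 of the 12 (r10, r12, r18, r21, r33, r39, r51 and r54), Grin2b 2 (r88 and r140) and Grin2d and Grin3a 1 each (Grin2d_r5 and Grin3a_r10). The 2 called in proestrus controls alone were Grin2b_r87 and Grin2b_r111. Without diestrus control 1 the first count was 21 and without proestrus control 3 it was 19, and the second count was 5, 7 and 4 without diestrus control 2, proestrus control 2 or proestrus control 3. Grin2a_r12, Grin2a_r33 and Grin2a_r39 were also the Grin2a regions lost after cocaine in diestrus, the same control libraries serving both comparisons. Cortical excitatory markers were called for 1 to 3 genes in diestrus controls and 4 in each proestrus control, and their part in these counts was not tested.

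Per gene, in the 12 female libraries with labels permuted within treatment, stage gave no call in the family and none in 8825 genes (0.0%; 484 genes higher and 456 lower in diestrus at an unadjusted exact p of 0.05). The smallest exact permutation p this design allows is 0.005 (400 assignments), and the smallest adjusted p over all genes was 0.365. The lack of calls therefore does not show that stage had no effect. The largest difference of the family was that of Grin2a, 11.98 points higher in diestrus (exact permutation p = 0.02, adjusted p = 0.386), and the lowest that of Grin3a and Grin3b, -10.9 points each. In fold enrichment 0 of the 52 regions passed in controls in either direction by limma, against 0.356% higher and 0.114% lower in diestrus over all regions. At an unadjusted p of 0.05, 9 were higher and 1 lower, and without diestrus cocaine 1, 1 passed as higher. After cocaine, 0 regions separated diestrus from proestrus (0.245% of all) and 1, Grin2b_r55 in intron 4, proestrus from diestrus (0.517% of all). Without diestrus cocaine 1 this count was 14, and it was 2 without diestrus cocaine 2, 5, 9 and 2 without proestrus cocaine 1, 2 or 4. The reverse count was 1 without diestrus cocaine 2 or proestrus cocaine 2 and 3 without diestrus cocaine 3.

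Males were compared with females of both stages. In controls, 2 regions of the family were called in all 3 male and no female library, Grin2a_r9 and Grin2a_r19 in intron 3 of Grin2a, against 7.2% of all kept regions. In the reverse direction 1 was called in all 6 female and no male library, Grin2b_r63 in intron 4 of Grin2b, against 0.314% of all. Without male control 2 the first count was 6, and without single control libraries the second was between 1 and 4 (4 without male control 1, 3 without proestrus control 1 or male control 3, 2 without diestrus control 3, proestrus control 2 or male control 2). After cocaine, 0 regions were called in males alone (1.16% of all) and 11 (4.47%) in all 6 female libraries and no male, against 2.83% of all. These were Grin3a_r9 and 10 regions of Grin2b (r1, r17, r42, r44, r47, r90, r92, r95, r113 and r137), and the count was 17 without diestrus cocaine 3 or male cocaine 1 and 18 without male cocaine 2. Without proestrus cocaine 4, 1 region was called in males alone.

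Grin2b had the largest difference of the family between males and females in the percent of regions called, lower in males. Of its 147 regions, female libraries called 66 to 121, male controls 94, 76 and 88, and the male cocaine libraries 40 and 33. The male cocaine libraries were below every other library, and the male controls overlapped the females. Over all kept regions the male cocaine libraries were also the lowest (42.0% and 36.6%, against 45.6% or more in the others). After centring they stood at -14.8 and -14.2 points for Grin2b, near male control 2 at -12.9. The centred difference between males and females, within treatment, was -24.8 points (exact permutation p = 0.000425, the smallest this design allows, adjusted p = 0.0248), where 4.37% of all genes passed, 198 higher and 188 lower. The call was lost without any 1 of the 5 male libraries (adjusted p 0.0586 to 0.0673), without centring (-27.3 points, adjusted p = 0.0946), with −log10 q of at least 5 (-15.6 points, adjusted p = 0.0536) and where peaks had to cover 50% of a region (-17.7 points, adjusted p = 0.118). Without a male library the smallest possible p is larger, so that those losses do not show dependence on a single male library. The other 6 genes had differences of -21.1 (Grin2c) to 0.157 points (Grin2a) and adjusted p of 0.135 to 0.983.

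In fold enrichment, 3 of the 52 regions were higher and 7 lower in male than in female controls, against 12.1% and 11.9% of all. Grin2a_r31 in intron 3 of Grin2a (chromosome 16, 9801191 to 9802202) measured 8.54, 5.37 and 6.15 in male controls and 2.84 to 3.68 in female controls. No cocaine library passed 4.65, so that the male controls stood above all others. The difference in controls was 0.74 ± 0.14 (adjusted p = 0.000685). Grin2a_r20, in the same intron, showed the reverse, with 7.27, 5.65 and 7.68 in male controls and 6.34 to 13.3 in female controls, ranges that overlapped before normalization, and a difference of -0.78 ± 0.13 (adjusted p = 0.000332). Grin3a_r1, the start site, was higher in male controls (7.52, 9.36 and 7.35) than in any female control (3.25 to 5.25), by 0.66 ± 0.15 (adjusted p = 0.00408). These 3 passed in all 17 leave-one-out fits. The male controls with higher values at Grin2a_r31 and Grin3a_r1 were those with calls at 6 of 6 cortical excitatory markers, and the part of such cells was not tested.

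The remaining 7 calls were smaller. Grin2b_r98 in intron 5 was higher in males by 0.40, and Grin1_r3 (-0.51), Grin2b_r147 (-0.47), Grin1_r4 (-0.41), Grin2d_r8 at the start site of Grwd1 (-0.40), Grin2b_r2, the Grin2b start site (-0.36), and Grin1_r2, the Grin1 start site (-0.35), were lower. Thus 3 of the 4 Grin1 regions were lower in male controls. Their adjusted p was 0.0115 to 0.0489, and each was lost without at least 2 libraries. Grin1_r3 was lost without male control 2 or 3 (0.0652 and 0.0917), Grin2b_r147 without diestrus control 2, proestrus control 3 or any male control (0.0501 to 0.133), and the other 5 without 7 to 12 of the 17 (up to 0.290), male controls 2 and 3 among them each time. Without male control 2 or 3, 1 of the 52 regions was lower, without diestrus control 2 or 3, 2 and 3, and without any 1 of the proestrus controls or male control 1, 4.

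The last comparison asked whether the response to cocaine differed between males and females. Per gene, 10.2% of all genes passed, 642 higher and 260 lower in males, with a median of 11.3 points over all genes. Sex labels were permuted within each treatment, so these p-values are exact only where the sexes differ in neither treatment. Grin1 (30.8 points, adjusted p = 0.0320) and Grin2d (44.7 points, adjusted p = 0.0352, exact permutation tests) were among those higher. Of the 6 Grin1 regions, the male libraries called 5, 4 and 4 in controls and 4 and 4 after cocaine, and of the 9 Grin2d regions 6, 4 and 5 and then 4 and 4. Female controls called 4 to 6 Grin1 regions and 6 to 8 Grin2d regions, and female cocaine libraries 4 or 5 and 3 to 7. In males the counts of both genes overlapped between treatments, while the percent of all regions called was 64.6 or more in controls and 42.0 or less after cocaine. Without centring the differences were 2.78 points for Grin1 (adjusted p = 1.0) and 16.7 for Grin2d (adjusted p = 0.555), and with all merged regions 15.7 (adjusted p = 0.146) and 30.0 (adjusted p = 0.0991). Grin1 lost its call without any male control or male cocaine 2 (adjusted p 0.0561 to 0.0797) and Grin2d without 12 of the 17 libraries (0.0507 to 0.124), all 5 male libraries among them. The smallest possible p is larger with a library left out, so that these losses alone do not show dependence on a single library. When diestrus cocaine 1 was left out, 3 genes passed, Grin2c being the one added. The other 5 genes had differences of 3.58 (Grin2a) to 41.9 points (Grin2c) with adjusted p of 0.0873 to 0.794.

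In fold enrichment the interaction passed in 3 regions as higher and 4 as lower in males, against 8.17% and 8.29% of all. Those higher were Grin1_r3 (0.88 ± 0.22, adjusted p = 0.0108), Grin2d_r8 at the Grwd1 start site (0.76 ± 0.21, adjusted p = 0.0217) and Grin2a_r20 (0.72 ± 0.21, adjusted p = 0.0234). Those lower were Grin2b_r98 (-0.72 ± 0.22, adjusted p = 0.0315), Grin2b_r123 (-0.67 ± 0.19, adjusted p = 0.0206), Grin2b_r34 in intron 3 (-0.66 ± 0.21, adjusted p = 0.0358) and Grin2a_r31 (-0.64 ± 0.21, adjusted p = 0.0414). At Grin1_r3, female cocaine libraries lay between 2.78 and 5.22 and female controls between 3.48 and 5.80, while male cocaine libraries measured 3.83 and 3.60 and male controls 4.72, 3.31 and 3.07. Without male cocaine 1 or male cocaine 2 none of the 3 higher calls remained, and without male cocaine 2 none of the 4 lower. Without diestrus cocaine 1, 11 were higher, and without proestrus cocaine 2 or male control 1, 6. The lower calls numbered 1 without diestrus control 3, male control 3 or male cocaine 1, and 2 without proestrus control 2, proestrus cocaine 4 or male control 1 or 2. Centring on the median changed the split of all calls from 49.6% to 63.3% higher and that of the family from 3 and 4 to 6 and 2.

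Other genes of the receptor complex were read from the same table. Of 11 tested genes of a list of 12 scaffold and auxiliary proteins, 0 passed for cocaine in either direction, with a median of -8.47 points and a range from Shank1 (-18.4) to Neto1 (10.96). Of 9 tested of 12 kinases, phosphatases and calcium effectors, 0 passed (median -6.38), and of 5 tested of 6 genes of glycine and D-serine handling, 0 passed (median -9.72). At an unadjusted exact p of 0.05, Neto1 was higher and Ephb2, Camk2b, Nos1 and Actn2 lower. The median over all genes was -4.16 points. Stage gave 0 calls in all 3 lists, where Shank2 (14.1 points) and Slc1a4 (-22.6) passed without adjustment. The smallest exact permutation p of the stage test is 0.005, so that few calls could be reached after adjustment.

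Between the sexes, Dlg1, which encodes the scaffold SAP97, was lower in males (-19.8 points, adjusted p = 0.0436) and Rasgrf2, a calcium-regulated exchange factor, higher (27.9 points, adjusted p = 0.0248). For the difference of the cocaine response, the scaffold genes Dlg2 (34.2 points), Dlg4 (59.7) and Shank1 (49.8) and Srr (55.3), the serine racemase that makes D-serine, were higher in males, and Fyn (-22.0), a kinase that phosphorylates GluN2B, was lower (adjusted p 0.0384 to 0.0499). Of all genes 4.37% passed between the sexes and 10.2% for the difference of the response, where the median was 11.3 points. Values without centring, with all merged regions or without single libraries are not given for the genes of these lists. The lists had been chosen with earlier results of these data known.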

How the data were processed

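Neuronal nuclei of pooled nucleus accumbens were profiled by ATAC-seq, and the authors aligned reads to mm10 with BWA-MEM and called peaks in each library with MACS2, whose versions are not given in the sources used here. The deposited peak lists give each peak a score, its summit's fold enrichment over the background of its own library (a linear ratio), and −log10 p and −log10 q values, all as the authors' caller wrote them. They hold no read counts, so the study's counting with featureCounts and DESeq2 was not used here, and depth was judged only by the background pileup. The paper's supplement reports read numbers for the libraries, which were not used here. Libraries held 75458 to 157005 peaks.

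Peaks overlapping by at least 1 bp were merged over the 17 libraries, and regions called in at least 2 libraries of a group were kept. Gene bodies from GENCODE vM21 were extended by 10 kb, and a start site region lay within 1 kb of an annotated start. Groups were taken from the labels, or from the title where a label was blank.

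Complete separation of groups was counted, calls were tested with two-sided Fisher's exact tests, the percent of a gene's regions called with exact permutation tests within strata (genes with at least 5 kept regions), and log2 fold enrichment with limma over the 6 groups. Thresholds were an adjusted p of 0.05 (Benjamini-Hochberg over all features). R 4.3.3, limma 3.58.1, Python 3.11.15, numpy 2.4.6, pandas 2.3.3, scipy 1.17.1, pysam 0.24.0 and matplotlib 3.10.9 were used.

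Named were all 7 genes, their start sites, every region that separated groups or passed a threshold, and each gene's highest region elsewhere; genes of the pathway lists were given as counts and named where they passed or were the lowest or highest, and those named for an unadjusted p were chosen after their values were seen. The members and lists were chosen with earlier results of these data known. Alternatives were stricter peaks, equal peak numbers, 50% cover, no filter, no flank, no centring, median centring, an intensity trend, a replicate block and leaving out each library. The fits without diestrus cocaine 1 and proestrus cocaine 2 together, and on the 12 female libraries, were chosen after seeing the data.

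Each kind of test was tried on simulated data with known answers. These were the gene-level test and Fisher's test for cocaine, and complete separation and limma for cocaine in diestrus. The other comparisons were not simulated. P-values measure the spread between pools.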

Additional observations from a re-analysis of the deposited data

Results flagged for a closer look

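The response to cocaine differed between males and females in 9 values of the family by a test of the difference itself. In the percent of regions called, relative to all kept regions of a library, Grin1 differed by 30.8 points (exact permutation test, adjusted p = 0.0320) and Grin2d by 44.7 points (exact permutation test, adjusted p = 0.0352), both higher in males. These permutation p-values are exact only where the sexes differ in neither treatment, since sex labels were permuted within each treatment. Of all 8825 genes 10.2% passed, and the median difference over all genes was 11.3 points. Neither Grin1 nor Grin2d passed without the centring on all regions, and neither with all merged regions.

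In log2 fold enrichment (limma), the response was higher in males at Grin1_r3 by 0.88, at Grin2d_r8, the start site of Grwd1, by 0.76 and at Grin2a_r20 by 0.72. It was lower in males at Grin2b_r98 (-0.72), Grin2b_r123 (-0.67), Grin2b_r34 (-0.66) and Grin2a_r31 (-0.64). Of the family's 52 regions 5.77% were higher and 7.69% lower, against 8.17% and 8.29% of all regions. Male cocaine had 2 libraries, and each of the 7 calls was lost without at least 1 of them. Male controls carried calls at 6 of 6 cortical excitatory neuron markers and male cocaine libraries at 1 of 6, and the part of this in the values was not tested.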

How the results depend on the processing

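Of 796 recomputed values of 36 named genes and regions, 591 kept direction and side of the threshold, 4 newly passed, 0 reversed, and the others kept direction but no longer passed. Of 683 recomputed counts of 37, 464 stayed within 1.5 times. Causes were not tested. Peak lists give no read counts, so weak peaks near the calling threshold limit every count of calls.

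With −log10 q of at least 5, regions gained in diestrus went from 1 to 0, lost in proestrus from 6 to 1, gained in males from 3 to 0. Diestrus-only regions went from 12 to 5 in controls and from 0 to 1 after cocaine, proestrus-only from 2 to 0 and from 1 to 0. Male-only controls went from 2 to 4, female-only from 1 to 0 in controls and from 11 to 6 after cocaine. Genes called went from 1 to 0 for cocaine, 1 to 0 for sex and 2 to 1 for the interaction of sex and cocaine. By limma, proestrus went from 2 higher to 1 and from 2 lower to 0, males from 1 lower to 0, sex from 7 lower to 4 and the interaction from 4 lower to 1. Fisher's test called 0 more often in place of 3.

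With equal numbers of peaks, regions lost in diestrus were 3, lost in proestrus 1, gained in males 1 and lost in males 7. Diestrus-only regions were 4 in controls and 3 after cocaine, proestrus-only 0 and 0, female-only 0 and 3, and male-only after cocaine 1. Genes called were 0 for cocaine and 1 for the interaction, and Fisher's test called 1 more and 2 less often. With 50% cover, 16 regions were lost in males, 7 were diestrus-only, 1 male-only and 2 female-only in controls, 4 female-only after cocaine, and 0 genes passed for the interaction.

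Without diestrus cocaine 1 and proestrus cocaine 2, chosen after seeing the data, 38 regions were lost in diestrus and 6 gained in proestrus, and after cocaine 2 were diestrus-only and 36 proestrus-only. By limma, diestrus gave 2 higher and 13 lower, proestrus 1 and 4, males 2 and 2, stage 3 higher, sex 11 lower and the interaction 11 higher. Without centring, 2 genes were lower after cocaine, 0 lower for sex and 0 higher for the interaction. With all merged regions 0 genes passed for cocaine and 0 for the interaction, with no flank 1 for the interaction, and in the 12 female libraries 0 for cocaine. With median centring, limma gave 1 higher in proestrus, 2 higher in males and 6 higher and 2 lower for the interaction, and with an intensity trend 2 higher in males and 6 higher for the interaction.

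Deviations of same-numbered libraries from their group means had correlations of -0.228 to 0.149 (7 pairs, 1 over 0.1). With 2 or 3 libraries in a group, these values cannot show whether the numbers pair the samples. The main tests used no pairing. With a replicate block, limma gave 1 higher and 1 lower in proestrus and 1 lower for the interaction, and 0 genes passed for cocaine in sign flips over the pairs, whose smallest p is 0.0156.

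Leaving out 1 library gave 1 to 3 regions gained and 6 to 38 lost in diestrus, 2 to 6 gained and 6 to 10 lost in proestrus and 34 to 55 lost in males. Diestrus-only regions were 12 to 21 in controls and 0 to 3 after cocaine, proestrus-only 2 to 7 and 1 to 14, male-only 2 to 6 and 0 to 1, female-only 1 to 4 and 11 to 18. Genes higher after cocaine were 0 to 1 and lower 0 to 1, lower for sex 0 to 1, and higher for the interaction 0 to 3. Limma gave for diestrus 0 to 1 higher and 0 to 13 lower, proestrus 1 to 2 and 0 to 3, males 0 to 2 and 0 to 2, stage 0 to 1 higher, sex 2 to 3 higher and 1 to 9 lower, and the interaction 0 to 11 higher and 0 to 5 lower. Fisher's test gave 1 to 3 more and 3 to 15 less often.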
